A study of Mus musculus with 30 samples.

Results

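The genes described here encode the proteasome: its subunits, activators, inhibitor and assembly chaperones. They were taken from an atlas of open chromatin in mouse natural killer (NK) cells, as every peak whose assigned gene symbol starts with Psma, Psmb, Psmc, Psmd, Psme, Psmf or Psmg. The rule found 74 of 38526 peaks, assigned to 44 of 14886 named genes. They comprised 41 promoter peaks, 25 intergenic, 5 intron and 3 exon peaks by the authors' own annotation. Psmc3ip carries the letters but encodes a meiotic recombination cofactor and no part of the proteasome. It was selected by name only, and its promoter peak is included in the counts and motif windows below. The chromatin was profiled by ATAC-seq, in which a transposase cuts and tags accessible DNA, and each value is the number of reads in a peak after scaling between libraries.

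NK cells from spleen were grown for 5 days in IL-2 with an IL-15 and IL-15 receptor alpha complex and then treated for 5 h. The 30 libraries fell into 8 groups, from 2 genotypes, without or with prostaglandin E2 (PGE2) at 100 ng/ml, and either at rest or with the activating receptor NK1.1 engaged by antibody (stimulated). Stimulated cells had 1 h of treatment and then 4 h of anti-NK1.1. The wild type (WT) was C57BL/6J, and the knockout (KO) was labelled GzmbCre Ptger2-/- Ptger4fl/fl, lacking the PGE2 receptor EP2 in all cells and carrying a floxed gene of the receptor EP4 with a granzyme B-driven Cre. The WT has no Cre, so loss of the receptors and presence of Cre cannot be told apart. Each group had 4 libraries except resting PGE2-treated WT and resting untreated KO, with 3 each (replicates 2 to 4). All groups shared the culture, and no label states that a group's replicates are different mice or cultures. The p-values therefore measure the spread between these libraries, which may be technical.

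The proteasome degrades proteins tagged with ubiquitin. Its 20S core is a barrel of alpha and beta rings that holds the proteolytic sites, and its 19S cap, with a ring of ATPases, recognises, unfolds and feeds in the substrate. In lymphocytes the inducible beta subunits Psmb8, Psmb9 and Psmb10 can replace constitutive ones to form the immunoproteasome, and the activators PA28 alpha, beta and gamma (Psme1, Psme2, Psme3) can dock on the core in place of the cap.

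Libraries held 8444350 to 20153816 reads in peaks. Peaks of both deleted receptor genes were lower in KO: the Ptger2 promoter peak had 560 to 1109 normalised reads in the 15 WT libraries and 83.6 to 247 in the 15 KO libraries, and the Ptger4 exon peak had 434 to 685 and 56.2 to 152. The Ptger4 promoter peak was not lower, at 822 to 1455 in WT and 901 to 1605 in KO. All 9 NK genes checked, among them Ncr1, Klrb1c and Prf1, had promoter peaks, with summed levels of 8628 to 12132 normalised reads. At rest without PGE2 these sums were 10197 to 11465 in WT and 8628 to 9367 in KO, and limma called Klrb1c, the gene of NK1.1 (-0.59 and -0.42 at its promoter peaks), and Ncr1 (-0.40) lower in KO. No promoter peak was assigned to Cd3e, Cd3d, Cd3g or any of 5 B-cell genes, although other peaks were, among them a Cd3e exon peak and a Pax5 intron peak with means of 280 and 318 normalised reads in resting untreated WT. The promoter of Thy1, the only 1 of 8 T-cell genes with a promoter peak and a protein that mouse NK cells can also carry, had 152 to 193 normalised reads in resting untreated WT, 304 to 480 in stimulated untreated WT and 143 to 215 in stimulated PGE2-treated WT. The 2 of 6 myeloid genes with a promoter peak, including Spi1, summed to 813 to 902, 611 to 656 and 868 to 998 normalised reads in the same order. The erythroid list had 1 of 4 genes with a promoter peak, at 48.1 to 103 normalised reads over all libraries. Over all peaks of each list, stimulation of untreated WT raised 7 and lowered 1 of 12 T-cell peaks, and raised 3 and lowered 3 of 12 myeloid peaks. It raised 0 and lowered 2 of 3 B-cell peaks, all 3 of Pax5, where 28.9% of all peaks rose and 27.4% fell. PGE2 during stimulation raised 1 and lowered 9, raised 3 and lowered 2, and raised 2 and lowered 0, in the same order of lists. Of all peaks, 20.2% rose and 20.4% fell with PGE2. Myeloid peaks thus went both ways, with Spi1 at -0.60 and a Csf1r intron peak at 1.31 with stimulation, and 0.70 and -0.95 with PGE2. Only 4 of the 8 T-cell genes had a peak. In each of these comparisons the 3 T-cell peaks with the smallest p were all of Thy1. The part of these peaks in the results below was not tested.

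The promoter sequences of 7 genes are shown because their peaks carry the results or their subunits are catalytic or inducible: the PA28 gamma and alpha genes Psme3 and Psme1, the 19S genes Psmc2 (ATPase) and Psmd12 (lid), and the catalytic genes Psmb5, Psmb9 and Psmb8. Each window holds 250 bases before and 50 after the RefSeq start on GRCm38.p6, read 5′ to 3′ along the gene. Capitals mark letters matching a searched motif other than SP1.
Psme3 (chr11:101315963-101316262, plus strand): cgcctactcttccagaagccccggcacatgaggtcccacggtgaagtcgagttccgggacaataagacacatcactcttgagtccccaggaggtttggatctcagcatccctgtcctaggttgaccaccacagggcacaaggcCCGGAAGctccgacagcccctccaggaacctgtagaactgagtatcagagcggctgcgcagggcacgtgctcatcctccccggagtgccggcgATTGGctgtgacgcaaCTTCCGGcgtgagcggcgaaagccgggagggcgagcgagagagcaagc
Psme1 (chr14:55578244-55578543, plus strand): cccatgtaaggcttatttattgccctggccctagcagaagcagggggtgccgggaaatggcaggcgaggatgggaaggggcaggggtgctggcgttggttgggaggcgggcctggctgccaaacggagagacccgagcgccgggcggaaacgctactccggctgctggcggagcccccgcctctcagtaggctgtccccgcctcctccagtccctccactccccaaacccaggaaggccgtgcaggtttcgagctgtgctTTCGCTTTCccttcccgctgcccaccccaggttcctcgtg
Psmc2 (chr5:21785025-21785324, plus strand): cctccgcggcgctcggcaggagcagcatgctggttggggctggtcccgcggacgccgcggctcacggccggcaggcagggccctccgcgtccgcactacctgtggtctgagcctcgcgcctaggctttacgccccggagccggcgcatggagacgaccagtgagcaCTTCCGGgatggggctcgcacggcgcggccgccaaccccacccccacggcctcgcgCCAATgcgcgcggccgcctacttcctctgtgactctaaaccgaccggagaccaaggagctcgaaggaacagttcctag
Psmd12 (chr11:107479278-107479577, plus strand): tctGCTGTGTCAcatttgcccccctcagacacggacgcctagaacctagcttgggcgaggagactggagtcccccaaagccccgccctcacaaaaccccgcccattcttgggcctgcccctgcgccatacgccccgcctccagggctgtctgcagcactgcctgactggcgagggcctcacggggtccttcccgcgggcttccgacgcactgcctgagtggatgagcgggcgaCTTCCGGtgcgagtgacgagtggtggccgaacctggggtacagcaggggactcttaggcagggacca
Psmb5 (chr14:54617946-54618245, minus strand): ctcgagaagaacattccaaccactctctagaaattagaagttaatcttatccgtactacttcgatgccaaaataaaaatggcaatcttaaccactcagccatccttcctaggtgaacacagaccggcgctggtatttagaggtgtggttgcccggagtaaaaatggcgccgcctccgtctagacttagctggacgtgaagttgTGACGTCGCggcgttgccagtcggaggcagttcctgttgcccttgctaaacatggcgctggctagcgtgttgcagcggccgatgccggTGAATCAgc
Psmb9 (chr17:34187281-34187580, minus strand): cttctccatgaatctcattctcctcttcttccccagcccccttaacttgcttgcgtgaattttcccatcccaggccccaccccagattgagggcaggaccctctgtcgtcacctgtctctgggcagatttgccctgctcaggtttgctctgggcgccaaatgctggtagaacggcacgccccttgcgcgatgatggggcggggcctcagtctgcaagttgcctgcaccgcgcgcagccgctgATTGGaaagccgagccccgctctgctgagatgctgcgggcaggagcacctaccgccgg
Psmb8 (chr17:34197945-34198244, plus strand): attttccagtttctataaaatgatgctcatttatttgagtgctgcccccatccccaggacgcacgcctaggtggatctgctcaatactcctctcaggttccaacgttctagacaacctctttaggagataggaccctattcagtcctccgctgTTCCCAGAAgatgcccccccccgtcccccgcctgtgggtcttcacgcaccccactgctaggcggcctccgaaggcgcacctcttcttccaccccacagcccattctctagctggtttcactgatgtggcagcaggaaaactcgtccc
The Psme3 window held the ETS letters CCGGAAG at offsets -107 and 3 from the start, where the base at the start is 1, with the NF-Y letters CCAAT (here as their reverse complement) at -14. The Psme1 window held the interferon response letters GAAANNGAA, on the reverse strand, at 11. Psmb5, which encodes the chymotrypsin-like site, held the core of the antioxidant response element, TGACNNNGC, at -47, and AP-1 letters (TGANTCA) at 42. Psmb8 held the STAT letters TTCNNNGAA at -97.

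Of the 41 promoter peaks, 34 had a window in the RefSeq table. Both strands were searched for 10 motifs. The ETS letters were in 13 windows (38.2%), among them Psme3, Psmc2, Psmd12 and Psmd4, against 19.6% of the 11866 windows in promoter peaks and 8.86% of all 32851 windows. The antioxidant response core was in 6 windows (17.6% against 14.6% and 12.4%), those of Psmb5, Psmb6, Psmc6, Psmd9, Psmd12 and Psme4. The interferon response letters were also in 6 (17.6% against 6.68% and 8.56%), those of Psmb3, Psmb4, Psmd4, Psmd9, Psme1 and Psmg4. The cAMP response element TGACGTCA, which shares its first letters with the antioxidant core, was in 0 windows (3.43% and 1.79%), and AP-1 letters were in 2 (5.88% against 4.26% and 7.81%). SP1 letters (GGGCGG) were in 58.8% (68.2% and 35.7%), NF-Y letters in 35.3% (38.0% and 37.4%), STAT letters in 8.82% (6.42% and 8.3%), YY1 letters (AAGATGGC) in 5.88% (4.65% and 2.75%) and NRF1 letters (CGCATGCG) in 2.94% (4.31% and 1.87%). The median window had 19.5 CpG dinucleotides, against 22 for windows in promoter peaks and 7 for all windows. These are matches of letters and not measured binding sites.

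Several subunit genes have their start in a peak that the atlas gives to another gene. The Psma2 start lay in the Mrpl32 promoter peak, Psma4 in that of AY074887, Psmd13 in that of Sirt3, Psme2 in that of Rnf31 and Psmg3 in that of Gm26938, while the Psmf1 start lay in a Psmf1 exon peak. Of the 34 promoter peaks with a listed start, 4 (11.8%) also held the start of a second gene, against 18.3% of all promoter peaks with a listed start: Psma7 with Ss18l1, Psmb9 with Tap1, Psmc5 with Ftsj3 and Psmd10 with Atg4a. Reads there cannot be divided between the genes.

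The proteasome promoters were open in every condition, and most group means lay close together. In resting untreated WT their median level was 449 normalised reads per kb of peak, against 350 for all promoter peaks, with Psma3 (core alpha ring) highest at 831 and Psmb7 (trypsin-like site) lowest at 169. The ratio of the highest to the lowest of the 8 group means had a median of 1.23 and exceeded 1.5 in 3 of 41 peaks (7.32%), those of Psme3, Psme1 and Psmc2, with Psmc2 just past that limit at 1.503 and Psmd4 just under it at 1.46. Over all 12048 promoter peaks the median ratio was 1.31 and 24.7% exceeded 1.5. ATAC-seq of a cell population cannot tell a change in the number of cells with open chromatin from a change in openness per cell.

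**Figure D1:**
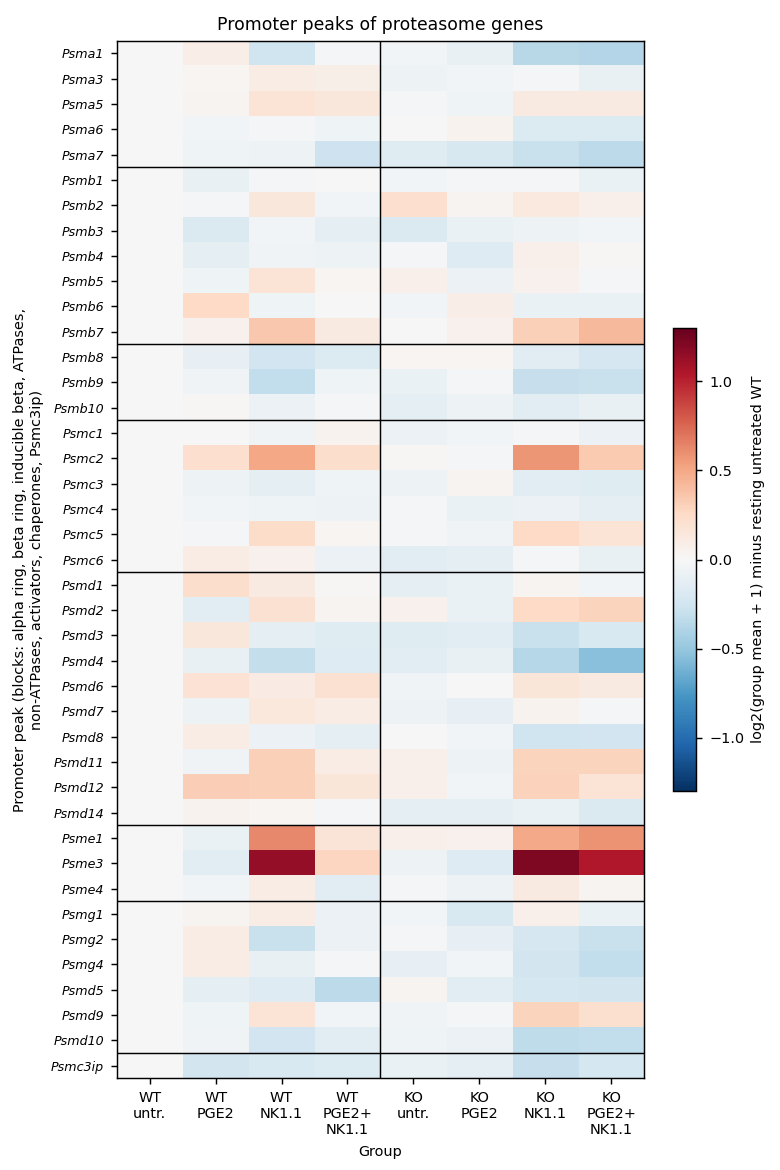
Heat map of the 41 promoter peaks in the 8 groups (columns), in blocks by the role of the gene product. Colour is log2(group mean + 1) minus the value in resting untreated WT, from blue (lower) to red (higher). Psme3 and Psme1 are the darkest rows, in the stimulated columns, and most other rows stay near white.

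The first comparison asked how NK1.1 stimulation changes accessibility at these genes. In untreated WT, 16 of the 74 peaks were higher and 18 lower by limma (adjusted p under 0.05 over all 38525 peaks tested), against 28.9% and 27.4% of all peaks. Among the 41 promoters, 8 rose and 7 fell (19.5% and 17.1%), against 19.5% and 21.7% of all promoters. The fallen promoters include that of Psmc3ip, which is no proteasome gene (means of 607 normalised reads at rest and 528 after stimulation). Among the 33 other peaks, 8 rose and 11 fell (24.2% and 33.3%), against 33.1% and 30.0% of all peaks outside promoters. The median log2 difference was -0.02 over the member promoters and -0.03 over all promoters. The called shares were thus near those of the atlas, and the members moved in both directions. In untreated KO, 16 were higher and 17 lower, against 28.1% and 26.4% of all peaks. This last split was 14 higher and 26 lower after quantile normalisation, 20 and 13 with the median promoter ratio set to 0, and 11 were lower without replicate 3 of the stimulated KO. Over all 38525 peaks it was 10816 higher and 10185 lower in the main test and 9704 and 14119 after quantile normalisation. At a median promoter ratio of 0 it was 11495 and 9041, and without that replicate 9173 were lower.

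**Figure D2:**
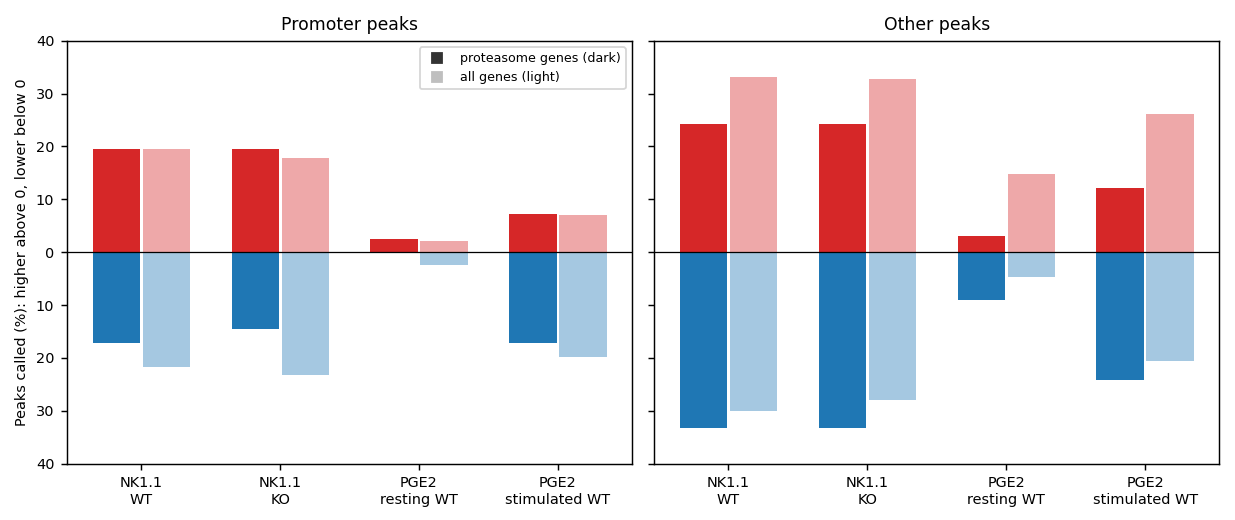
Percent of peaks called by limma, higher above 0 and lower below 0, for stimulation in untreated WT and KO and for PGE2 in resting and stimulated WT, with promoter peaks on the left and other peaks on the right. Dark bars are proteasome genes and light bars all genes. For stimulation of WT the dark promoter bars reach 19.5% higher and 17.1% lower.

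The PA28 genes Psme3 and Psme1 had the highest ratios of group means among the 41 promoters. The Psme3 promoter peak (chr11:101315637-101317198), for PA28 gamma, the nuclear activator, had 516, 445, 401 and 387 normalised reads in the resting untreated WT libraries and 991, 934, 1003 and 941 after stimulation. With PGE2 and stimulation it had 543, 531, 523 and 523. The stimulated untreated libraries lay far above both other sets with no overlap. The rise was 1.15 ± 0.07 (SE) on the log2(value + 1) scale, which is the scale of all differences below, with limma adjusted p = 6.56e-16. PGE2 during stimulation lowered it by a log2 difference of -0.87 ± 0.07 (limma adjusted p = 9.99e-12), whereas PGE2 at rest gave 425, 382 and 385 normalised reads and was not called (-0.13 ± 0.08, limma adjusted p = 0.33). The interaction of PGE2 and stimulation was called by limma, at -0.74 ± 0.11 (adjusted p = 5.07e-06).

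The Psme1 promoter peak (chr14:55577963-55579312), for PA28 alpha of the cytoplasmic activator, had 518, 501, 430 and 396 normalised reads at rest and 723, 775, 640 and 711 after stimulation in untreated WT. Under PGE2 the stimulated libraries had 527, 537, 501 and 513. The means of these 3 sets ran in the order of Psme3, but the PGE2-treated stimulated libraries overlapped the resting ones. Stimulation raised it by 0.63 ± 0.09 (limma adjusted p = 1.32e-07) and PGE2 during stimulation lowered it, at -0.45 ± 0.09 (limma adjusted p = 7.9e-05). Psme2 encodes PA28 beta, the partner of PA28 alpha. Its start lies in the Rnf31 promoter peak, which had 2780 ± 62.4 normalised reads at rest and 2928 ± 134 after stimulation (SD, 4 libraries each) and was not called (0.07 ± 0.08, limma adjusted p = 0.475). Psme4, the gene of the activator PA200, had a promoter difference of 0.09 with stimulation, not called, and fell under PGE2 during stimulation (-0.24). Psmf1, the gene of the inhibitor PI31, was not called in its exon peak (-0.09 ± 0.10, limma adjusted p = 0.445).

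**Figure D3:**
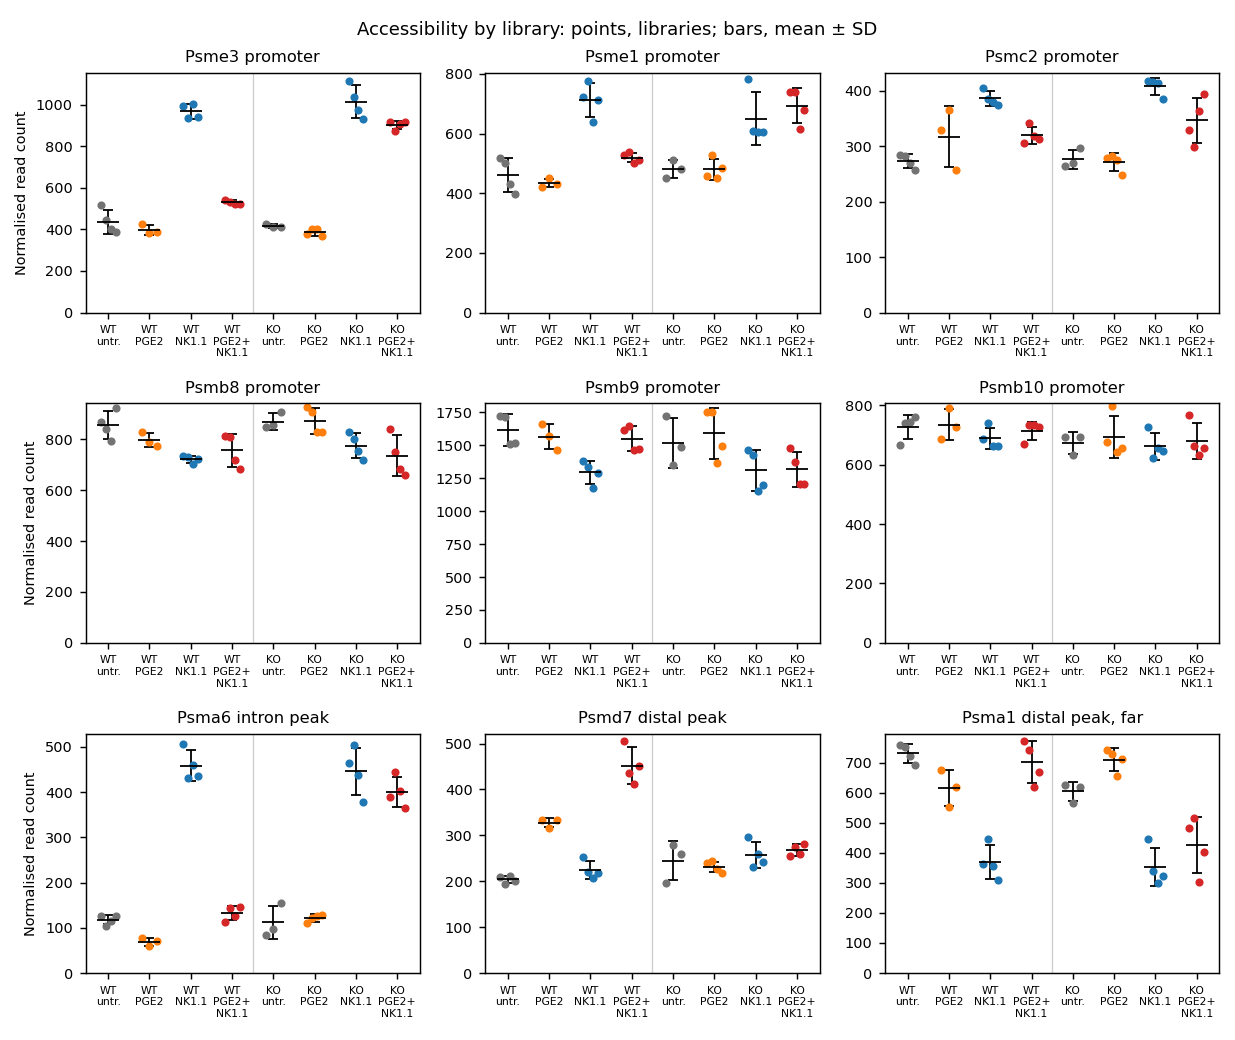
Normalised read counts of 9 peaks in every library (points), with the mean and SD of each group (bars); the 4 left columns of a panel are WT and the 4 right columns KO, grey untreated resting, orange PGE2, blue NK1.1, red PGE2 with NK1.1. The Psme3 promoter stands at 934 to 1003 in stimulated untreated WT and at 523 to 543 under PGE2, while both stimulated KO groups stay at 875 or above.

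The classes of subunits hold few promoters, so their counts are descriptions, beside 19.5% of all promoters that rose and 21.7% that fell. Among the 19S genes, 2 of 6 ATPase promoters rose with stimulation in untreated WT and 0 fell. Psmc2 (chr5:21784317-21785506) led, with 284, 283, 269 and 257 normalised reads at rest and 405, 385, 380 and 375 after stimulation, and no overlap. Its difference was 0.50 ± 0.09 (limma adjusted p = 1.42e-05), and a Psmc2 exon peak beside it rose by 0.35. That exon peak also holds a listed Psmc2 start, but the annotation places it outside promoters and it is counted there. Psmc5 was the other ATPase gene (0.24). Of 10 non-ATPase promoters 2 rose, Psmd12 and Psmd11, both lid subunits, and 1 fell. The one that fell was Psmd4 (chr3:95042156-95043499), the gene of a ubiquitin receptor, with 851, 986, 841 and 953 normalised reads at rest and 723, 779, 731 and 705 after stimulation (-0.30 ± 0.07, limma adjusted p = 0.000491). The Psmd14 promoter, for the lid's deubiquitinase, was not called (0.03). Psmd12 rose by 0.32 ± 0.09 (limma adjusted p = 0.0024) and Psmd11 by 0.31 (limma adjusted p = 0.00151).

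In the 20S core, most promoters were not called, as over all promoters, of which 19.5% rose and 21.7% fell. Of 5 alpha-ring promoters, Psma5 rose (0.17) and Psma1 fell, from 778, 763, 674 and 660 to 599, 584, 614 and 607 normalised reads (-0.25, limma adjusted p = 0.0243). The Psma1 call was lost when replicate 2 of the stimulated group, or replicate 1 or 2 of the resting group, was left out (untreated WT). Of 7 constitutive beta promoters only Psmb7 rose (0.36, limma adjusted p = 0.00699), a call lost under quantile normalisation (0.24). Psmb5 (0.18, limma adjusted p = 0.094) and Psmb6 (-0.05, limma adjusted p = 0.647), the genes of the other constitutive catalytic sites, were not called.

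Of the 3 inducible beta promoters, 2 fell in untreated WT, where 21.7% of all promoters fell. With so few promoters this count is a description. Psmb9 (chr17:34186405-34188582), whose peak also holds the start of the peptide transporter gene Tap1, had 1726, 1714, 1510 and 1516 normalised reads at rest and 1380, 1335, 1175 and 1290 after stimulation. Psmb8 (chr17:34196359-34198777) had 866, 839, 794 and 924 at rest and 733, 731, 701 and 722 after stimulation. In neither did the groups overlap, and limma gave -0.32 ± 0.09 (adjusted p = 0.00301) and -0.24 ± 0.07 (adjusted p = 0.00546). Psmb10 had 667, 740, 743 and 760 at rest and 687, 740, 663 and 664 after stimulation, overlapped, and was not called (-0.08, limma adjusted p = 0.396). In untreated KO none of the 3 was called (-0.17, -0.21 and -0.02 for Psmb8, Psmb9 and Psmb10), whereas in PGE2-treated KO stimulation lowered Psmb8 (-0.25) and Psmb9 (-0.27), with groups that overlapped, and not Psmb10 (-0.03).

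Of 6 chaperone promoters, 0 rose and 2 fell, Psmg2 (-0.29) and Psmd10 (-0.25, with Atg4a in the same peak). Over all promoters 19.5% rose and 21.7% fell. Psmg2 pairs with Psmg1, whose promoter was not called (0.09). The Psmg3 start, in the Gm26938 peak, had 73.7 ± 17.2 normalised reads at rest and 109 ± 5.87 after stimulation (SD, 4 libraries each) and rose by 0.58 ± 0.20 (limma adjusted p = 0.015). Among the other starts held in a neighbour's peak, that of Psmd13 (lid) fell (-0.28, limma adjusted p = 0.0012), that of Psma4 rose (0.23, limma adjusted p = 0.00856) and that of Psma2 was not called (-0.18, limma adjusted p = 0.112).

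The 4 peaks that rose most with stimulation of untreated WT lay outside promoters, in chromatin the atlas assigns to these genes. The intron peak of Psma6 (chr12:55392067-55393479), 6052 bp from the nearest listed Psma6 start, had 127, 105, 114 and 125 normalised reads in resting untreated WT and 507, 432, 459 and 435 after stimulation, with 113, 144, 125 and 145 under PGE2 and stimulation. PGE2 at rest gave 77.2, 60.3 and 70.0, below every resting untreated library. Stimulation raised the peak by 1.95 ± 0.13 (limma adjusted p = 1.86e-15), and PGE2 lowered it both at rest (-0.76 ± 0.14, limma adjusted p = 0.00012) and during stimulation (-1.79 ± 0.13, limma adjusted p = 2.03e-13).

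An intergenic peak (chr12:55446172-55447580) is also assigned to Psma6 but lies 48051 bp from its start, 45771 bp from that of Nfkbia, an inhibitor of NF-kappaB, and 14280 bp from that of Gm36571. It had 746, 710, 699 and 720 normalised reads at rest and 1831, 1751, 1490 and 1517 after stimulation, and 700, 793, 738 and 708 under PGE2 and stimulation. The PGE2-treated stimulated libraries were thus at the level of resting untreated ones. They stood above PGE2-treated resting WT, with a mean of 735 ± 42.3 against 508 ± 25.9 (SD, 4 and 3 libraries). The differences were 1.19 ± 0.09 with stimulation (limma adjusted p = 4.05e-14), -0.50 ± 0.10 with PGE2 at rest (limma adjusted p = 0.000201) and -1.16 ± 0.09 with PGE2 during stimulation (limma adjusted p = 6.51e-13). The Psma6 promoter between these peaks had 858 ± 41.3 normalised reads at rest and 841 ± 45.3 after stimulation (SD, 4 libraries each) and was not called (-0.03).

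**Figure D4:**
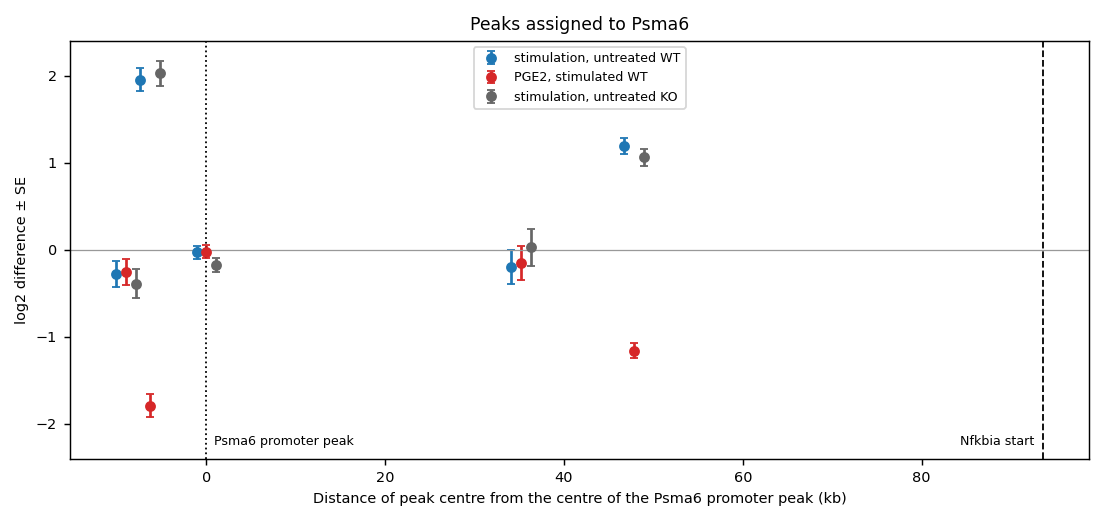
The 5 peaks assigned to Psma6 by distance from the centre of its promoter peak (kb, horizontal) and log2 difference with its SE (vertical), for stimulation of untreated WT (blue), PGE2 in stimulated WT (red) and stimulation of untreated KO (grey); points of a peak are set side by side for legibility. The intron peak reaches 1.95 and the far intergenic peak 1.19 with stimulation, while the promoter peak stays at -0.03.

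A further 3 peaks rose by more than 1 log2 unit with stimulation of untreated WT. An intergenic peak 3569 bp from the Psmb6 start (chr11:70528636-70529217) went from 12.6, 17.5, 27.5 and 16.7 to 91.1, 75.9, 111 and 113 normalised reads (2.37 ± 0.24, limma adjusted p = 9.81e-11). A Psmb7 intron peak (chr2:38591954-38592569) went from 14.9, 20.4, 11.8 and 27.5 to 62.7, 54.2, 69.8 and 73.7 (1.81 ± 0.22, limma adjusted p = 4.28e-09). In both the groups stood apart, but these are shallow peaks and the read numbers limit their precision. An intergenic peak 4157 bp from the Psmg3 start (chr5:139830607-139831496) went from 95.8, 102, 113 and 77.6 to 275, 270, 337 and 326 (1.63 ± 0.13, limma adjusted p = 2.8e-13).

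Other distal peaks lost accessibility. An intergenic peak 16012 bp from the Psma1 start (chr7:114291137-114293119) had 1088, 1102, 1097 and 1041 normalised reads at rest and 578, 651, 521 and 573 after stimulation (-0.90 ± 0.10, limma adjusted p = 1.53e-09). Its neighbour at 25433 bp (chr7:114301006-114302092) had 760, 752, 722 and 691 at rest and 364, 446, 355 and 309 after stimulation (-0.998 ± 0.12, limma adjusted p = 4.84e-09). At rest both were more open per length than the median proteasome promoter, at 546 and 673 normalised reads per kb, and neither overlapped between the groups. An intergenic Psmc1 peak (chr12:100083930-100084709) fell by a log2 difference of -1.23 ± 0.22 and the Psmb3 exon peak (chr11:97710778-97711847) by -0.94 ± 0.14 (limma adjusted p = 1.3e-05 and 2.53e-07). Of the remaining peaks outside promoters, those called lower were 1 each of Psma1 (-0.64), Psma3 (-0.32), Psma4 (-0.54), Psmd1 (-0.52), Psmd4 (-0.91), Psmg1 (intron, -0.67) and Psmb9 (-0.33). Those called higher were 1 each of Psmb9 (0.59) and Psmb7 (0.45). The calls at Psma1, Psma4, Psmd1 and Psmb7 were each lost when at least 1 library was left out.

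The second comparison asked what PGE2 does during stimulation. In stimulated WT, 7 of the 74 peaks were higher with PGE2 and 15 lower by limma, against 20.2% and 20.4% of all peaks. Among the promoters 3 rose and 7 fell (7.32% and 17.1%, against 7.1% and 19.9% of all promoters). The promoters that rose were those of Psma1 (0.24), Psmb9 and Psmg2 (0.22), and the calls at Psma1 and Psmg2 were each lost on leaving out any of several libraries. The fallen promoters included Psme1, Psme3 and Psme4, and 2 of 6 ATPase genes, Psmc2 (-0.27) and Psmc5 (-0.22). The split of the 74 peaks was 8 higher and 9 lower with the median promoter ratio set to 0, under which the Psmc2, Psmd11 and Psma7 promoter calls were lost, and 4 were higher when replicate 1 or 2 of the PGE2-treated or replicate 3 of the untreated stimulated WT was left out. Over all 38525 peaks the split was 7767 and 7852 in the main test and 9287 and 6274 at that scaling. Without those libraries in turn, in the same order, 6713, 7079 and 6912 were higher. The Psme3, Psme1 and Psma6 calls held under every setting run.

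Several peaks that fell with stimulation were higher when PGE2 was present. The far Psma1 peak had 772, 743, 618 and 670 normalised reads in stimulated PGE2-treated WT, all above the stimulated untreated libraries given above (0.93 ± 0.12, limma adjusted p = 6.6e-08), and the nearer one had 871, 948, 826 and 789 (0.56 ± 0.10, limma adjusted p = 2.73e-05). The Psmc1 intergenic peak was higher by 0.91 ± 0.22 (limma adjusted p = 0.00118). The Psmb9 promoter had 1619, 1647, 1466 and 1474 normalised reads and rose by 0.26 ± 0.09 (limma adjusted p = 0.0201), a call lost without replicate 1 or 2 of the PGE2-treated or replicate 3 of the untreated stimulated group. In the other direction the Psmb7 intron peak had 30.8, 25.7, 32.6 and 26.2 normalised reads with PGE2 (-1.15 ± 0.22, limma adjusted p = 4.43e-05), the Psmb6 distal peak was lower by a log2 difference of -0.87 ± 0.24 (limma adjusted p = 0.00346), and the Psmg3 distal peak by -0.65 ± 0.13 (limma adjusted p = 0.000121). The stimulation and PGE2 comparisons share the stimulated untreated libraries, so their values are set side by side and not correlated.

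An intergenic peak assigned to Psmd7 (chr8:107570781-107572097) behaved differently. It had 210, 194, 211 and 201 normalised reads in resting untreated WT and 253, 220, 208 and 218 after stimulation, which overlapped (0.14 ± 0.10, limma adjusted p = 0.241). With PGE2 it had 333, 316 and 334 at rest and 506, 435, 412 and 452 after stimulation, above every untreated WT library. PGE2 raised it by 0.68 ± 0.11 at rest (limma adjusted p = 6.81e-06) and by 1.00 ± 0.10 during stimulation (limma adjusted p = 1.73e-10). The promoter of Psmd7, a lid subunit gene, was not called in either comparison (-0.06 and -0.04).

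In resting WT, PGE2 made 2 of the 74 peaks higher and 3 lower by limma, against 10.9% and 4.03% of all peaks. The 5 were the Psmd7 distal peak, the Psmd12 promoter (0.31 ± 0.09, limma adjusted p = 0.0204), both Psma6 peaks and a Psmc1 intron peak (-0.49). The count of higher peaks was 1 without replicate 3 of the PGE2-treated or replicate 2 of the untreated group, and 4 without replicate 4 of the PGE2-treated group. Over all peaks, 4186 were higher in the main test and 3352, 3746 and 3441 without these libraries in turn. At Psmd12 the PGE2-treated libraries had 559, 748 and 589 normalised reads and the untreated ones 568, 479, 452 and 531, which overlapped, and its call was lost without the library at 748 or without replicate 2 or 3 of the untreated group. The Psmc1 intron call was also lost on leaving out any of 5 libraries in turn, and with the median promoter ratio set to 0.

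Under PGE2, stimulation of WT made 6 of the 74 peaks higher and 3 lower by limma, against 12.7% and 3.8% of all peaks. The split was 8 and 1 with the median promoter ratio set to 0, and 6 and 5 after quantile normalisation. Over all peaks it was 4874 and 1465 in the main test, and 5525 and 817 and then 4308 and 2158 at these settings. Without replicate 2 or without replicate 4 of the stimulated PGE2-treated group, 1 member was lower, and 1123 and 1168 of all peaks. Psme3 was the only promoter that rose (0.42 ± 0.08, limma adjusted p = 0.000199), and the Psma6 intron peak rose by 0.92 ± 0.14 (limma adjusted p = 5.68e-06). Between PGE2 at rest and PGE2 during stimulation, limma called 13 members by the interaction, 3 higher and 10 lower, against 25.3% of all peaks. Of all 38525 peaks, 4088 were higher and 5669 lower by this interaction. Across the 74 peaks, the log2 differences with stimulation under PGE2 and without it, from separate libraries, had Pearson r = 0.762, Spearman rho = 0.644 and a slope through 0 of 0.337. The points share peak depth and these are descriptions across peaks, which are not independent replicates. No value over all peaks is given beside them, so they are not read as particular to these genes.

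**Figure D5:**
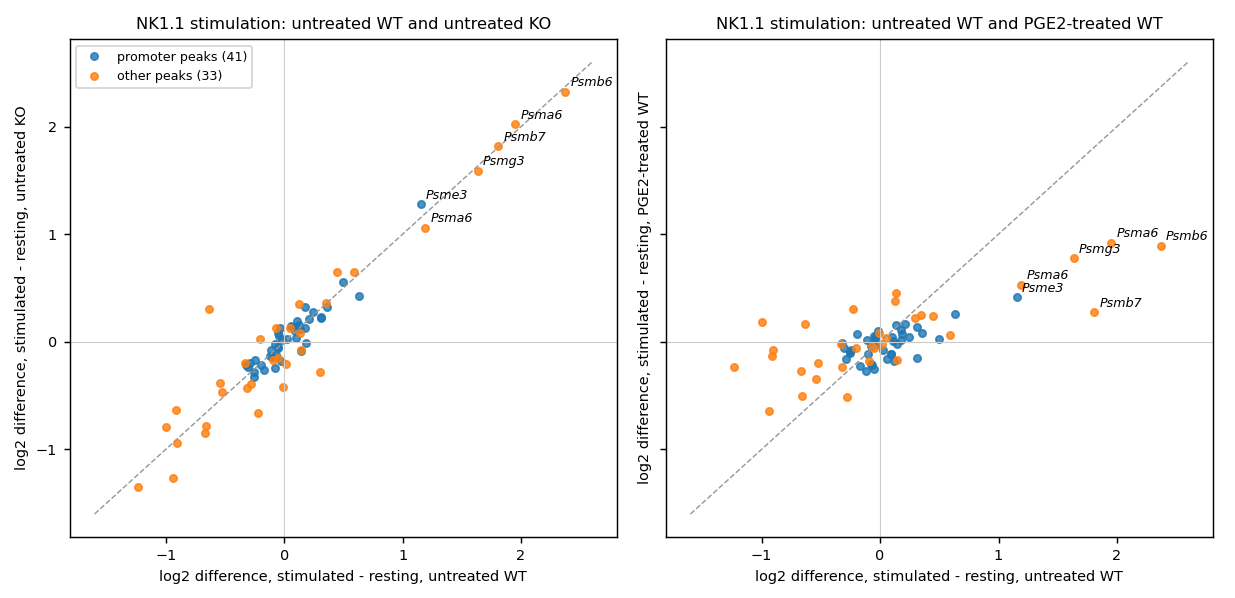
Log2 difference with stimulation in untreated WT (horizontal) against that in untreated KO (left) and in PGE2-treated WT (right) for the 74 peaks, promoters in blue, others in orange; the dashed line is equality. Points lie along the line in the left panel (slope through 0 of 0.973) and nearer the horizontal axis in the right one (0.337).

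The receptor knockout served to ask which PGE2 differences need EP2 and EP4. In KO, PGE2 changed 0 of the 74 peaks at rest by limma, against 0% of all peaks, and 0 during stimulation, against 0.0026%. At an unadjusted p under 0.05 the counts were 4 and 5, where 1520 and 1634 of all 38525 peaks passed. Both edgeR and DESeq2 also called 0 members in each. The Psme3 promoter in stimulated KO had 1113, 1034, 975 and 930 normalised reads without PGE2 and 915, 875, 908 and 915 with it. Those libraries did not overlap, with a difference of -0.16 (95% interval -0.31 to -0.01) that was not called (limma adjusted p = 0.999). For the Psma6 intron peak they had 464, 504, 437 and 379 without PGE2 and 390, 445, 402 and 364 with it, which overlapped (-0.15, 95% interval -0.42 to 0.11).

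The difference of the PGE2 response between the genotypes (WT minus KO) during stimulation was called by limma for 8 members, 3 higher and 5 lower, against 20% of all peaks. Of all 38525 peaks, 3915 were higher and 3775 lower here. The members are listed next. They were both Psma6 peaks (-1.64 ± 0.19 for the intron and -1.17 ± 0.13 for the intergenic peak), the Psmd7 distal peak (0.94 ± 0.14), the Psme3 promoter (-0.70 ± 0.11, limma adjusted p = 6.36e-06), the Psme1 promoter (-0.55 ± 0.13, limma adjusted p = 0.00146), the Psmb7 intron peak, the far Psma1 peak and the Psmd4 promoter. The last of these (0.31, limma adjusted p = 0.0282) was lost on leaving out any of 6 libraries in turn. At rest 2 members were called, against 6.18%: the Psmd7 distal peak (0.75 ± 0.15) and the Psma6 intron peak (-0.93 ± 0.20).

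Stimulation itself moved the same members in both genotypes in most cases. Of the 16 members called higher in WT and the 16 in KO, 15 were shared, and of 18 and 17 called lower, 12 were shared, with 0 in opposite directions. Across the 74 peaks, WT and KO differences from separate libraries had Pearson r = 0.954 and Spearman rho = 0.852. No overlap count or correlation over all peaks is given here, so nothing particular to these genes is read from these values. The lower Klrb1c and Ncr1 promoter levels in resting KO stand beside these values, and their part was not tested. Psme3 rose by 1.28 ± 0.08 in KO and Psme1 by 0.43 ± 0.10 (limma adjusted p = 5.51e-16 and 0.00027). The interaction of genotype and stimulation was called for 0 members (1 at an unadjusted p under 0.05, and 0 by edgeR and DESeq2), against 0.00779% of all peaks. Under PGE2, KO cells gave 17 higher and 20 lower with stimulation, against 27.7% and 27.1% of all peaks. Resting untreated KO and WT differed at 0 members by limma (7 at an unadjusted p under 0.05, and 0 by edgeR and DESeq2), against 1.73% of all peaks, with 1 called when replicate 2 of the resting KO was left out. Without that library 550 of all peaks were higher and 301 lower, against 420 and 245 in the main test. Over all 38525 peaks, the unadjusted counts were 5990 for KO against WT and 1452 for the interaction of genotype and stimulation.

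Other genes of the pathway were read from prepared lists in stimulated against resting untreated WT. Among further subunits, assembly and shuttle factors, 4 of 14 promoters rose and 0 fell, where 19.5% of all promoters rose and 21.7% fell. They included Pomp, the core's maturation factor (0.76 ± 0.07, from 541 to 913 mean normalised reads), and Usp14, a deubiquitinase of the cap (0.61 ± 0.08, from 585 to 895), both with limma adjusted p of 5.29e-08 or less. Of 7 promoters of ubiquitin and p97 genes 0 rose and 1, Ubb, a ubiquitin gene, fell (-0.34 ± 0.08). Of 5 promoters of transcription factors that act on proteasome genes 0 rose and 3 fell, and of 7 promoters of antigen processing partners 3 rose and 0 fell, led by Tap2, a peptide transporter subunit (1.37 ± 0.12). The last list also names Tap1, whose start lies in the peak assigned to Psmb9. That peak is not counted here, and it fell with stimulation and rose with PGE2 during stimulation, as given above. PGE2 during stimulation lowered 4 of 14, 1 of 7, 0 of 5 and 3 of 7 of these promoters, in the same order of lists, and raised 0, where 19.9% of all promoters fell and 7.1% rose. With so few promoters in a list these counts are descriptions, and nothing particular to a list is read from them.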

How the data were processed

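ATAC-seq of cultured splenic NK cells was read from a peak table. Reads were trimmed with Trimmomatic 0.39, aligned with Bowtie2 2.4.1 to mm10, and scaled with DESeq2, with peaks from MACS2 2.2.7.1, per the submitters' processing notes. The sources used here do not state duplicate handling or a shift of cut sites. Deposited values are signal per peak: reads divided by a library's size factor, by the authors. Each value divided by that of 1 read in its library was whole (100% of values, tolerance 0.05 reads), and these recovered reads went to edgeR 4.0.16 and DESeq2 1.42.0 as alternatives. No 2 libraries were identical, and the closest pair of a group differed by a chi-square of 2.204 per degree of freedom.

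The main test was limma 3.58.1 (R 4.3.3, two-sided) on log2(value + 1), with 1 mean per group over all 30 libraries and no block, for 38525 peaks with a mean of at least 10 (1 removed). Benjamini-Hochberg adjustment ran over all peaks of each comparison, called at 0.05. The 95% intervals are limma's. Tests were checked on simulated data. All 74 member peaks passed the filter. The members and lists were chosen with earlier results of these data known. Named genes were up to 8 called members per direction by smallest p, and catalytic, PA28 and Psmd14 promoters called or not. Also named were every member outside promoters called with stimulation of untreated WT, and up to 3 peaks per pathway list. Alternatives were other pseudocounts, filters, scalings, models, a replicate block, fits of the compared groups only, and leaving out each library. Distances and promoter sequences come from RefSeq (GRCm38.p6), and distances to genes with no start there are not given.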

Additional observations from a re-analysis of the deposited data

Results flagged for a closer look

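In groups of 4 libraries, 1 library stood apart from the other 3 by Dixon's 95% criterion in 12 of 258 cases (4.65%), where chance gives about 1 in 20. In stimulated untreated KO, replicate 1 had 973 normalised reads at the Psma7 promoter, 783 at the Psme1 promoter and 526 at an intergenic Psmb9 peak, replicate 2 had 554 at the Psmb5 promoter and replicate 4 had 385 at the Psmc2 promoter. In PGE2-treated KO, stimulated replicate 2 had 875 at the Psme3 promoter and resting replicate 1 had 144 at the Psmg1 intron. In resting untreated WT, replicate 2 had 94.3 at the Psma6 intergenic peak nearest its promoter and replicate 1 had 91.9 at the Psmc1 intron. In stimulated WT, untreated replicate 2 had 201 at the Psmb7 promoter, PGE2-treated replicate 2 had 85.9 at an intergenic Psmc1 peak and PGE2-treated replicate 1 had 669 at the Psmb10 promoter.

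The effect of PGE2 differed between stimulated and resting WT by limma's interaction term at 13 peaks, given here as stimulated minus resting on the log2 scale. It was positive at the intergenic peaks of Psma1 (1.18 at the far peak, 0.83 at the nearer) and Psmc1 (0.99). It was negative at the Psma6 intron (-1.03) and far intergenic (-0.66) peaks, the Psmb7 intron (-1.53), and the intergenic peaks of Psmb6 (-1.48), Psmg3 (-0.86) and Psmb9 (-0.53). It was also negative at the promoters of Psme3 (-0.74), Psmc2 (-0.47), Psmd12 (-0.46) and Psme1 (-0.37). Psmc2 and Psmd12 were not called without replicate 3 of resting PGE2-treated WT, and the Psme1 and Psmb9 calls were each lost on leaving out any of several libraries.

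The effect of PGE2 differed between the genotypes during stimulation at 8 peaks (WT minus KO): the Psma6 intron (-1.64) and far intergenic (-1.17) peaks, the Psmb7 intron (-1.25), the promoters of Psme3 (-0.70), Psme1 (-0.55) and Psmd4 (0.31), and the intergenic peaks of Psmd7 (0.94) and Psma1 (0.67). At rest it differed at the Psmd7 intergenic peak (0.75) and the Psma6 intron (-0.93).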

How the results depend on the processing

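Over 155 single-peak results at 43 peaks, all 155 kept direction and call with a pseudocount of 10 and with no filter, as did all 124 left with a mean of at least 100. edgeR kept 151, DESeq2 154, fits of the compared groups 146, quantile normalisation 148 and a median promoter ratio of 0 kept 140. Directions reversed only at small values that were not called. The Psmd14 promoter with PGE2 in stimulated WT was 0.0185 at a median promoter ratio of 0, and -0.0913 to 0.0094 on leaving out 1 library. With stimulation of untreated WT it was -0.0279 after quantile normalisation and -0.0411 to 0.0711 on leaving out 1 library, and the Psmb6 promoter was -0.1006 to 0.0174. The cause was not tested.

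Of the counts of called members, stimulation of PGE2-treated WT gave 6 lower by DESeq2, 5 after quantile normalisation and 1 at a median promoter ratio of 0. Over all peaks these lower counts were 2011, 2158 and 817, against 1465 in the main test. PGE2 in stimulated WT gave 9 lower at a median promoter ratio of 0, and stimulation of untreated KO 26 lower after quantile normalisation, which moved the median of all peaks from -0.03 to -0.13. Over all peaks the lower counts were 6274 and 14119, against 7852 and 10185 in the main test. Fits of the compared groups gave 6 lower for PGE2 in resting WT and 4 for genotype and PGE2 at rest. Over all peaks the first was 2067 lower, against 1554 in the main test. The second was 1690 higher and 647 lower, against 1903 and 478. Leaving out 1 library gave 0 to 1 for KO against WT, 1 to 4 higher for PGE2 at rest and 4 to 8 during stimulation in WT, 1 to 4 lower for stimulation of PGE2-treated WT and 11 to 17 for untreated KO. Over all peaks, KO against WT gave 110 to 550 higher and 122 to 301 lower. PGE2 in WT gave 3352 to 3954 higher at rest and 6713 to 7381 during stimulation. Lower counts were 703 to 1256 for stimulation of PGE2-treated WT and 9024 to 9973 for untreated KO.

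The replicate block kept 154 of the 155 results and moved 1 count by over 1.5 times, stimulation of PGE2-treated WT to 6 lower. Over all peaks that count went from 1465 to 2463. Of 99 same-numbered pairs the lowest correlation was -0.021 and the median 0.065, against -0.023 for other pairs, and 26 of 30 libraries correlated best with their own number. Libraries of the same number thus shared structure in the data, which the design does not account for. The labels do not tie the numbers to a shared source, so the fit without the block was kept. Its p-values leave this structure out. With the block, the calls over all peaks for stimulation of untreated WT went from 11120 higher and 10572 lower to 11577 and 11199. The shallow Psmb6 peak held as few as 14 reads in a library, which limits its resting level.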

Other observations

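Psmb9, Psmb8 and Tap2 lie close together in the major histocompatibility complex on chromosome 17, and their promoters did not all move the same way. With stimulation of untreated WT the Psmb9 and Psmb8 promoters fell (-0.32 and -0.24), while the Tap2 promoter (chr17:34203084-34203823) rose by 1.37 ± 0.12 (limma adjusted p = 2.33e-12), from a mean of 153 to 397 normalised reads. A Tap2 intron peak (chr17:34210356-34211214) had 564 and 522 normalised reads in resting and stimulated untreated WT and 1068 in stimulated PGE2-treated WT, a rise with PGE2 of 1.02 ± 0.11 (limma adjusted p = 1.67e-09).

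In the list of further subunits, assembly and shuttle factors, the 3 peaks with the smallest p for PGE2 in WT lay outside promoters and opened. They are picked peaks, and PGE2 during stimulation lowered 4 of 14 promoters of this list and raised 0. The distances of these peaks to the starts of their assigned genes and of neighbouring genes are not given, so the assignment is the atlas's own. An intergenic peak assigned to Uchl5, a deubiquitinase of the 19S cap (chr1:143853538-143854505), went from a mean of 24.4 to 238 normalised reads at rest (3.31 ± 0.26, limma adjusted p = 3.5e-12) and from 30.7 to 236 during stimulation (2.92 ± 0.24, limma adjusted p = 2.73e-12). A Rad23b intergenic peak rose by 1.25 ± 0.19 and 1.71 ± 0.18, and a Ddi2 intron peak by 0.74 ± 0.18 and 1.48 ± 0.16. In Nlrc5, an activator of class I antigen presentation genes, 1 intron peak rose with stimulation (1.86 ± 0.15) and another fell (-0.92 ± 0.12).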
